A study of Mus musculus with 6 samples.

Results

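The genes described here are the mouse heat shock proteins and the chaperones with a J domain, taken as the protein-coding genes whose symbols begin with Hspa, Hspb, Hspd, Hspe, Hsph, Hsp90 or with Dnaja, Dnajb or Dnajc. The symbols matched 88 rows of the deposited table of 55401 genes, 14 of them processed pseudogenes that were left out, which gave 74 genes. RNA was sequenced from group 3 innate lymphoid cells (ILC3s), lymphocytes of mucosal tissue that release interleukin 22, which the labels place in the lamina propria of the small intestine, in wild-type animals. 3 libraries came from cells pretreated with vehicle and 3 from cells pretreated with PEox, an abbreviation that the labels leave unexplained and that in ferroptosis research usually stands for oxidised phosphatidylethanolamine. The protocol text speaks of pups, and dose, duration, age and place of exposure are not given in the sources used here. No label ties a library to its own animal, and p-values therefore measure library-to-library spread that may be technical. The comparison asks which RNAs differ in ILC3s after PEox, in a series on bile acid signalling, epithelial ferroptosis and ILC3s in neonatal necrotizing enterocolitis.

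Heat shock proteins of the HSP70 family bind exposed hydrophobic stretches of unfolded proteins in a cycle driven by ATP. J-domain proteins (the DNAJA, DNAJB and DNAJC classes) deliver clients and stimulate HSP70 to hydrolyse ATP, and HSP110 proteins exchange the nucleotide so that the client is released. HSP90 acts later on proteins such as kinases and steroid receptors, the chaperonin of HSP60 (Hspd1) and HSP10 (Hspe1) folds proteins inside mitochondria, and small heat shock proteins hold unfolded proteins without ATP. Heat shock factor 1 (HSF1) switches on the stress-inducible members in the cytosol, and the unfolded protein response switches on members that reside in the endoplasmic reticulum (ER).

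The promoters of a few of these genes hold matches to the DNA elements through which both responses act. They are printed here because the near-identical pair Hspa1a and Hspa1b carried the largest differences and the 3 ER genes named below share an element. Promoters were taken from RefSeq on GRCm38.p6 as the 250 bases before a transcription start and the 50 after it, and 60 of the 74 genes were matched. The heat shock element was searched on both strands as its 2-unit forms GAANNTTC and TTCNNGAA and as its 3-unit form, which contains both of them, and the ER stress response element (a CCAAT box followed at a fixed distance by CCACG) was searched on both strands as well, all in the 250 bases before the start. Printed windows lie on the strand of the gene, 5′ to 3′, and capitals mark the matched element. The Hspa1a (chr17:34972157-34972406, minus strand) and Hspa1b (chr17:34959239-34959488, minus strand) windows differed at 3 of 250 bases and both held 1 GAANNTTC match.
Hspa1a: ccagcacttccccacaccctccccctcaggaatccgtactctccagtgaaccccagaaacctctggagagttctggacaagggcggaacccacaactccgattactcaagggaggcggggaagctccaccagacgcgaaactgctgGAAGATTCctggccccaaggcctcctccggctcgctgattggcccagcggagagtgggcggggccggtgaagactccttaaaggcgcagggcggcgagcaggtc
Hspa1b: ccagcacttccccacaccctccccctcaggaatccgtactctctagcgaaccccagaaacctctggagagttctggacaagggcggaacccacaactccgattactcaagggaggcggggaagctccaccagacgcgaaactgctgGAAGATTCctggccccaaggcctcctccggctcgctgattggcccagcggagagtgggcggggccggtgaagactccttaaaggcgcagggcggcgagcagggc

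Shorter windows show a TTCNNGAA match in Hsph1 (chr5:149636351-149636380, minus strand) and an ER stress response element in Hspa5 (chr2:34772019-34772048, plus strand). In the promoter that Hspe1 shares with the oppositely directed Hspd1 (chr1:55088053-55088082, plus strand), 2 overlapping matches to the 3-unit heat shock element are marked. Hsp90b1 (chr10:86705510-86705694, minus strand) held 2 ER stress response elements, one on each strand, and Dnajc3 (chr14:118937682-118937931, plus strand) held 1. The Hspa1a, Hspa1b, Hsp90b1 and Dnajc3 windows hold no annotated exon, and for the other genes the 30 bases around the match are shown.
Hsph1: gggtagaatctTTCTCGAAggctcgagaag
Hspe1: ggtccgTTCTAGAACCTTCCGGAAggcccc
Hspa5: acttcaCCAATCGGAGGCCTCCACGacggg
Hsp90b1: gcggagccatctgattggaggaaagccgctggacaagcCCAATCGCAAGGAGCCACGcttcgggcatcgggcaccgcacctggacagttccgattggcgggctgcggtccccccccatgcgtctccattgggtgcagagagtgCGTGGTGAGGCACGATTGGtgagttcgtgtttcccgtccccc
Dnajc3: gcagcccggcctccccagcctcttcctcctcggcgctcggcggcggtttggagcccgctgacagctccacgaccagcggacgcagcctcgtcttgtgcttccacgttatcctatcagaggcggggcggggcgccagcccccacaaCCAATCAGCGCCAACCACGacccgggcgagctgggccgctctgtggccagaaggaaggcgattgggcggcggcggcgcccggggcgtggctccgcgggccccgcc

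The ER stress response element occurred in 3 of the 60 matched chaperone genes (5%), Hspa5, Hsp90b1 and Dnajc3, against 0.13% of 27025 genes in the promoter table. The 3-unit heat shock element occurred in Hspd1, Hspe1 and Dnajb6, also 5%, against 0.514% of all genes. Hspd1 and Hspe1 hold it in the promoter they share, which is thus counted for both. The form GAANNTTC was found in 18.3% of the matched chaperone genes and in 7.73% of all genes, and TTCNNGAA in 10% and 8.11%. A second form of the ER stress response element was in 0 of the matched chaperone genes (0.037% of all genes), and the CCAAT box alone in 38.3% and 37.5%. By the test described below, 23 matched genes were higher in PEox, 10 lower and 22 not called. The 3-unit heat shock element was in 0, 1 and 2 of these, GAANNTTC in 4, 1 and 5, and TTCNNGAA in 3, 1 and 2. The ER stress response element was in 3, 0 and 0. Whether a match goes with a difference between the groups was not tested. These matches are descriptions of the sequence within this window, not evidence of factor binding, and genes without a match may hold elements elsewhere.

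The deposited counts summed to between 56252806 and 66849230 per library, and 3 counts equal 0.0472 to 0.0529 CPM (counts scaled to library size with TMM factors). Of 18253 genes with enough counts for the test, 37.1% passed an adjusted p of 0.05 and count as called, 18.3% higher and 18.8% lower in PEox. Of the ILC3 markers, Il22 stood at 6724 and 2513 CPM (mean of vehicle and of PEox) and Il23r at 215 and 203 CPM, while the protocol text names sorted EpCAM+CD45- epithelial cells and Epcam stood at 52.1 and 31.9 CPM. The 8 ILC3 markers summed to 11390 to 11590 CPM in vehicle and 5757 to 5869 CPM in PEox, with Il22 the largest part. Of these markers 5 were lower, 1 was higher and 2 were not called. Other marker lists moved between the groups. The summed level of 8 cell division genes was 662 to 696 CPM in vehicle and 185 to 193 CPM in PEox, with 8 of 8 lower. The 6 B and plasma cell genes summed to 256 to 279 against 34.4 to 40.4 CPM with 6 of 6 lower, the 6 T cell genes to 104 to 117 against 42.2 to 54.0 CPM with 5 lower and 1 higher (Cd8a was at 0 in all PEox libraries), and the 6 mast cell genes to 39.3 to 41.9 against 5.35 to 12 CPM with 3 lower. The 8 epithelial genes summed to 97.9 to 111 against 58.3 to 67.2 CPM with 3 of 6 tested genes lower, the 6 macrophage and dendritic cell genes to 158 to 167 against 80.4 to 107 CPM with 2 lower, the 6 erythroid genes to 2754 to 2802 against 5121 to 5808 CPM with 5 higher, and the 6 stromal genes to 207 to 232 against 301 to 331 CPM with 3 higher and 1 lower. Of 8 immediate early genes that respond to tissue dissociation, 4 were higher and 2 lower, and they summed to 1458 to 1506 against 1703 to 1758 CPM. In bulk samples fewer cells of a type and less RNA per cell cannot be told apart, and the part of these shifts in the chaperone results was not tested.

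Of the 74 chaperone genes 67 were tested. 25 were higher in PEox (37.3%, against 18.3% of all tested genes), 14 were lower (20.9%, against 18.8%) and 28 were not called. Called genes tend to be abundant, and among the 59 chaperone genes averaging at least 5 CPM 42.4% were higher and 23.7% lower, against 28.6% and 26.9% (55.5% in either direction) of the 10599 tested genes of that level. 8 members were at least 2-fold higher, against 3.75% of all tested genes, and 2 at least 2-fold lower, against 6.98%. The groups did not overlap in 25 members that were higher and 17 that were lower, against 24.1% and 26.5% of all tested genes (50.6% in either direction). The median log2 fold change was 0.03, and that of all tested genes 0.00. The summed level of all members was 10950 to 11750 CPM in vehicle and 11360 to 11690 CPM in PEox, ranges that overlap.

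**Figure D1:**
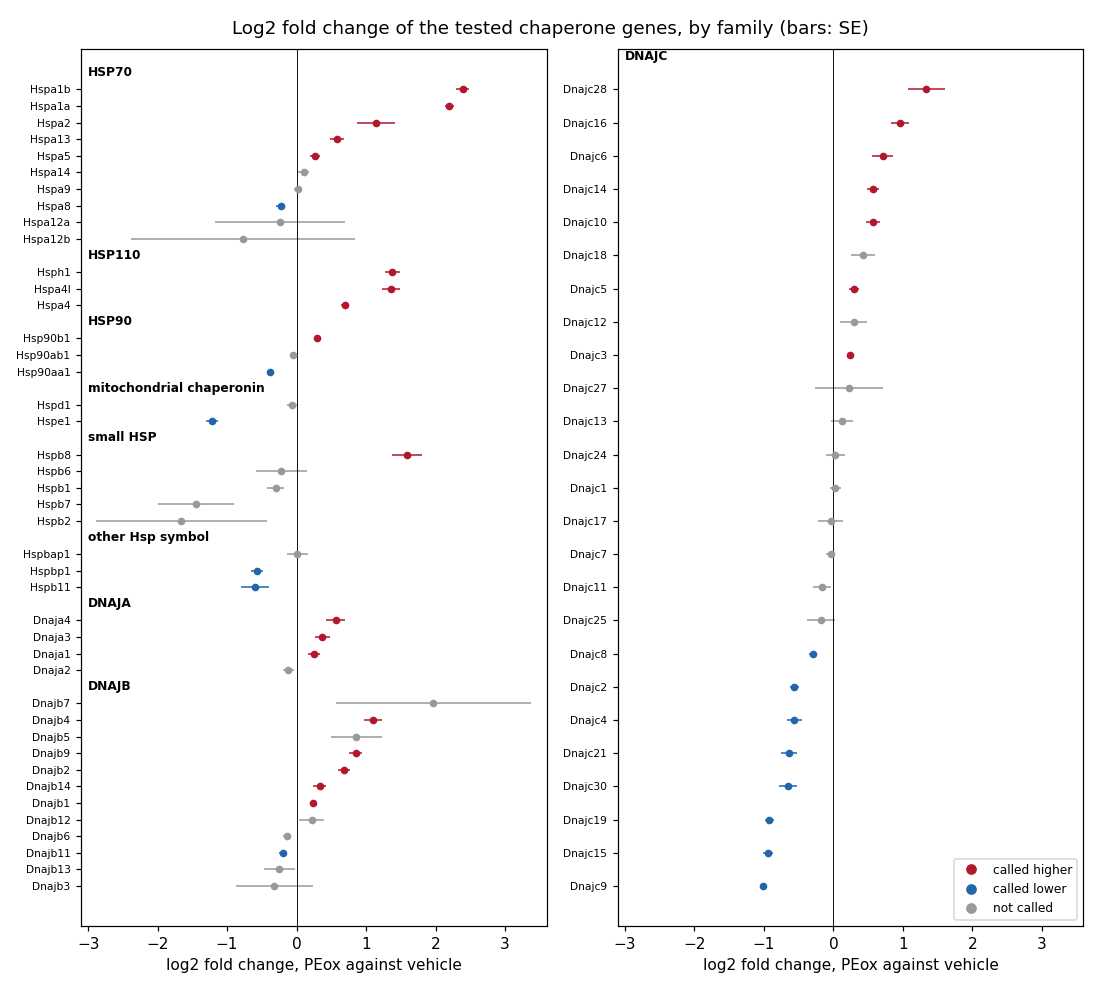
Log2 fold change of PEox against vehicle (x axis) for each of the 67 tested genes, grouped by family; points are estimates, bars their SE, red called higher, blue called lower and grey not called. Hspa1b and Hspa1a lie farthest to the right among the called genes and Hspe1 farthest to the left.

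The stress-inducible cytosolic HSP70 genes carried the largest differences among called genes. Hspa1a had 51.03, 49.3 and 45.1 CPM in the vehicle libraries and 220.2, 221 and 226 CPM in the PEox libraries. Hspa1b had 19.8, 19.2 and 16.9 CPM in the vehicle libraries and 95.9, 99.8 and 96.8 CPM in the PEox libraries. Every PEox library lay above every vehicle library for both genes, whose libraries within a group differed little. Hspa1a had a log2 fold change 2.20 ± 0.06 (SE), edgeR adjusted p = 5.02e-07. Hspa1b had a similar value (log2 fold change 2.39 ± 0.09 (SE), edgeR adjusted p = 1.18e-06). These genes are near-identical copies, so reads of one may have been counted for the other, and their sum was 67.2 ± 4.61 CPM in vehicle and 319.9 ± 3.53 CPM in PEox (SD over 3 libraries), a ratio of 4.76. The counts of Hspa1a were 2.61 ± 0.0638 times those of Hspa1b in vehicle and 2.28 ± 0.0639 times in PEox.

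The constitutive partner Hspa8 (HSC70), which folds new proteins and uncoats clathrin vesicles, went the other way by a small amount. It had 2704, 2686 and 2294 CPM in the vehicle libraries and 2187, 2218 and 2128 CPM in the PEox libraries, with a log2 fold change -0.23 ± 0.06 (SE), edgeR adjusted p = 0.0187. That call was lost on leaving out vehicle 1 (log2 fold change -0.19, adjusted p = 0.0722), vehicle 2 (-0.20, 0.0765), PEox 1 (-0.24, 0.0533) or PEox 3 (-0.22, 0.0618), and with scaling by library size (-0.10, 0.255), all by edgeR. Per kilobase of transcript Hspa8 stayed the most abundant HSP70, with a mean level of 1070 ± 96.8 CPM per kb in vehicle and 909.5 ± 19.2 in PEox. Within the family, Hspa8 made up 67.4% of the level per kb in vehicle and 56.9% in PEox, whereas Hspa1a made up 1.03% and 4.69%, Hspa1b 0.419% and 2.18%, and Hspa5 22.8% and 27.3%. The sum of Hspa1a and Hspa1b over Hspa8 rose from 0.0263 to 0.147 CPM per CPM (exact two-sided permutation p = 0.10, the smallest that 20 splits allow).

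The order of the HSP70 levels per kb also moved. In vehicle it ran Hspa8, Hspa5, Hspa14 at 66.5 ± 5.64, Hspa9 at 56.6 ± 1.97, Hspa1a at 16.4 ± 1.02 and then Hspa1b at 6.65 ± 0.564, which did not differ from Hspa13 at 6.61 ± 0.262 beyond its spread. In PEox Hspa1a at 74.95 ± 1.14 was not separated from Hspa14 at 71.4 ± 5.14. Hspa9 followed at 57.5 ± 3.15 and Hspa1b at 34.8 ± 0.722 CPM per kb.

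Hspa5 (BiP), the HSP70 of the ER, had 1264, 1125 and 1029 CPM in the vehicle libraries and 1394, 1344 and 1375 CPM in the PEox libraries. The groups did not overlap, with a log2 fold change 0.27 ± 0.07 (SE), edgeR adjusted p = 0.0163. The call was lost when the dependence of each library's counts on the length and GC content of transcripts was removed (log2 fold change 0.11, adjusted p = 0.324 by edgeR) and without vehicle library 2 (0.26, 0.0617) or PEox library 1 (0.25, 0.0567). Hspa13, another HSP70 of the ER, had 26.8, 28.98 and 28.2 CPM in the vehicle libraries and 39.01, 39.4 and 46.7 CPM in the PEox libraries, and a log2 fold change 0.58 ± 0.10 (SE), edgeR adjusted p = 0.00276. The Hspa13 value was 0.34, still called, with the length and GC trend removed. Hspa2, a cytosolic form best known from the testis, rose by 1.14 ± 0.27 on the log2 scale from a low level (4.58 ± 1.001 CPM in vehicle to 10.1 ± 2.78 CPM in PEox). Hspa9 (mortalin), the mitochondrial form, had 179, 168 and 169.9 CPM in the vehicle libraries and 184, 165 and 177 CPM in the PEox libraries, values that overlap (log2 fold change 0.02 ± 0.06 (SE), edgeR adjusted p = 0.804). Hspa14, a form bound to ribosomes, had 131, 115 and 112 CPM in the vehicle libraries and 139, 122 and 124 CPM in the PEox libraries, which overlap as well (log2 fold change 0.10 ± 0.08 (SE), edgeR adjusted p = 0.379). Hspa12a and Hspa12b remained under 1 CPM in every library and were not called, and Hspa1l, at most 0.366 CPM, was not tested.

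All 3 HSP110 genes, the nucleotide exchange factors of HSP70, were higher in PEox, against 18.3% of all tested genes. Hsph1 (HSP105) had 41.1, 52.2 and 52.1 CPM in the vehicle libraries and 119.6, 122 and 138 CPM in the PEox libraries, with a log2 fold change 1.38 ± 0.11 (SE), edgeR adjusted p = 3.78e-05. Hspa4l had 22.5, 27.1 and 26.1 CPM in the vehicle libraries and 56.4, 62.6 and 75.3 CPM in the PEox libraries, and a log2 fold change 1.36 ± 0.13 (SE), edgeR adjusted p = 9.74e-05. Hspa4 had 100.4, 101 and 108 CPM in the vehicle libraries and 163, 167 and 168 CPM in the PEox libraries, and a log2 fold change 0.69 ± 0.05 (SE), edgeR adjusted p = 3.77e-05. The groups were separated for each gene. Their summed level was 177 ± 11.4 CPM in vehicle and 357 ± 21.97 CPM in PEox (SD over 3 libraries), and the 3 genes were still called after removal of the trend on length and GC content, Hspa4 at 0.44.

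The 3 genes with an Hsp90 symbol did not share a direction. Hsp90aa1, the inducible cytosolic form, had 837, 879.5 and 847 CPM in the vehicle libraries and 676, 688 and 612 CPM in the PEox libraries, lower in every PEox library (log2 fold change -0.38 ± 0.05 (SE), edgeR adjusted p = 0.000727). Hsp90ab1, the constitutive cytosolic form, had 2005, 2015 and 1903 CPM in the vehicle libraries and 1912, 1976 and 1832 CPM in the PEox libraries, and its groups overlap (log2 fold change -0.05 ± 0.04 (SE), edgeR adjusted p = 0.401). Hsp90b1 (GRP94), the ER form, had 673, 699.9 and 730.1 CPM in the vehicle libraries and 862, 884 and 847 CPM in the PEox libraries and was higher in each PEox library (log2 fold change 0.30 ± 0.04 (SE), edgeR adjusted p = 0.000799). The constitutive over the inducible form was 2.31 ± 0.0767 in vehicle and 2.90 ± 0.0853 in PEox (exact two-sided permutation p = 0.10, the smallest possible). The ER form over Hsp90ab1 rose from 0.356 ± 0.0251 to 0.454 ± 0.00771 (same p). Scaling by library size moved Hsp90aa1 to -0.24, and removal of the length and GC trend moved Hsp90b1 to 0.17, both still called.

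**Figure D2:**
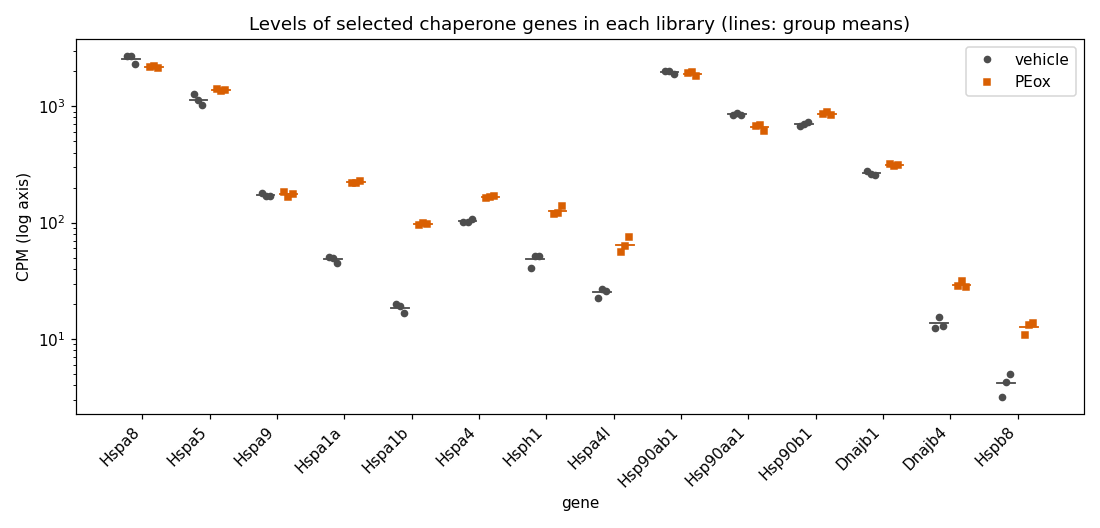
CPM (log axis) of 14 chaperone genes in each of the 3 vehicle (grey circles) and 3 PEox (orange squares) libraries; lines are group means. The groups are separated for Hspa1a, Hspa1b, the HSP110 genes Hspa4, Hsph1 and Hspa4l, Dnajb4 and Hspb8, while those of Hspa9 and Hsp90ab1 overlap.

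The partners of the mitochondrial chaperonin parted. Hspe1 (HSP10), the lid of the chamber, had 118, 112 and 109 CPM in the vehicle libraries and 47.5, 53.9 and 43.97 CPM in the PEox libraries, with a log2 fold change -1.22 ± 0.09 (SE), edgeR adjusted p = 2.30e-05. Hspd1 (HSP60), the chamber itself, had 182, 191 and 166 CPM in the vehicle libraries and 179, 157 and 176 CPM in the PEox libraries, values that overlap (log2 fold change -0.07 ± 0.07 (SE), edgeR adjusted p = 0.505). The ratio of Hspd1 to Hspe1 counts was 1.59 ± 0.0907 in vehicle and 3.56 ± 0.578 in PEox (exact two-sided permutation p = 0.10, the smallest possible). Both genes start at the shared promoter printed above. The 6 Hspe1 pseudogenes reached 0.0567% of the Hspe1 level in vehicle and 0.205% in PEox, and the 5 Hspd1 pseudogenes 3.08% and 2.27% of Hspd1. The annotated exons of Hspd1 and Hspe1 overlap by 112 bases, so without strand some reads could be counted for either.

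The members leave out Cryab, a small heat shock protein without an Hspb symbol that was lower in PEox and is given below. Among the small heat shock proteins that are members only Hspb8, which works with the co-chaperone Bag3 in the removal of damaged proteins, passed the test. It had 3.21, 4.27 and 5.06 CPM in the vehicle libraries and 10.8, 13.1 and 13.8 CPM in the PEox libraries, with a log2 fold change 1.59 ± 0.22 (SE), edgeR adjusted p = 0.000680. Hspb1 (HSP25) had 29.8, 27.1 and 26.8 CPM in the vehicle libraries and 25.6, 21.9 and 20.6 CPM in the PEox libraries, lower in all PEox libraries but not called (log2 fold change -0.30 ± 0.12 (SE), edgeR adjusted p = 0.0834). Hspb2, Hspb6 and Hspb7 stayed under 6 CPM and were not called, and Hspb3 and Hspb9 did not reach 1 CPM and were not tested. 2 genes that share an Hsp symbol without being chaperones of these families fell, the nucleotide exchange factor Hspbp1 (100.2 ± 2.60 CPM in vehicle to 67.7 ± 6.48 CPM in PEox, log2 fold change -0.57 ± 0.08 (SE), edgeR adjusted p = 0.000826) and Hspb11 (Ift25, a part of intraflagellar transport, 6.11 ± 0.378 CPM in vehicle to 4.04 ± 0.496 CPM in PEox, log2 fold change -0.60 ± 0.20 (SE), edgeR adjusted p = 0.0456). The Hspb11 call was lost in 9 of 14 alternatives, among them removal of any library except PEox 3 (log2 fold change -0.64 to -0.54, edgeR adjusted p 0.0940 to 0.146). Hspbp1 was at -0.34, still called, with length and GC content removed. Hspbap1 had 12.6 and 12.6 CPM on average and was not called.

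Of the 4 DNAJA genes, the closest relatives of bacterial DnaJ, 3 were higher. The share over all tested genes was 18.3%, and 28.6% over those averaging at least 5 CPM. Dnaja1 had 339.7, 349 and 359.7 CPM in the vehicle libraries and 431, 447 and 365 CPM in the PEox libraries, with a log2 fold change 0.25 ± 0.08 (SE), edgeR adjusted p = 0.0326. Dnaja3, the mitochondrial form, had 62.8, 60.7 and 50.5 CPM in the vehicle libraries and 73.95, 68.3 and 82.9 CPM in the PEox libraries (log2 fold change 0.37 ± 0.11 (SE), edgeR adjusted p = 0.0265). Dnaja4 had 23.5, 20.6 and 21.7 CPM in the vehicle libraries and 27.3, 31.4 and 38.4 CPM in the PEox libraries (log2 fold change 0.56 ± 0.14 (SE), edgeR adjusted p = 0.0143). The groups did not overlap, but the gap between the highest vehicle and the lowest PEox library was narrow for Dnaja1. These calls were among the least stable: with 1 library left out between 0 and 2 of the 3 genes were called, 0 without vehicle library 2 or vehicle library 3. Dnaja1 was also not called when vehicle 1 (adjusted p = 0.111), PEox 1 (0.108) or PEox 2 (0.116) was dropped, and Dnaja3 not when PEox 1 (0.0556) or PEox 3 (0.0824) was dropped, all by edgeR. With length and GC content removed, Dnaja4 alone was called. Dnaja2 averaged 182 and 168 CPM and was not called. Exons of Dnaja4 overlap those of the oppositely directed Wdr61 by 1581 bases, and Wdr61 had 121 CPM in vehicle and 97.4 CPM in PEox on average.

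Of the 12 tested DNAJB genes 5 were higher and 1 was lower, against 18.3% and 18.8% of all tested genes. Dnajb4, a cytosolic partner of HSP70, rose by 1.10 ± 0.13 on the log2 scale, with 12.4, 15.5 and 13.02 CPM in the vehicle libraries and 28.4, 31.2 and 28.1 CPM in the PEox libraries (edgeR adjusted p = 0.000263). Dnajb9 (ERdj4), an ER partner of BiP, had 38.3, 44.5 and 42.6 CPM in the vehicle libraries and 68.8, 81.3 and 76.2 CPM in the PEox libraries and a log2 fold change 0.85 ± 0.09 (SE), edgeR adjusted p = 0.000211. Dnajb1 (HSP40), the main inducible cytosolic partner of HSP70, had 277, 264 and 254 CPM in the vehicle libraries and 319.6, 308 and 314 CPM in the PEox libraries (log2 fold change 0.24 ± 0.05 (SE), edgeR adjusted p = 0.00437). Dnajb2, a ubiquitin-binding partner of HSP70, rose from 46.1 ± 1.32 CPM in vehicle to 73.9 ± 7.59 CPM in PEox, and Dnajb14, anchored in the ER membrane, from 22.7 ± 0.956 CPM in vehicle to 28.5 ± 2.15 CPM in PEox. Dnajb14 lost its call in 8 of 14 alternatives, among them removal of any library except PEox 3 (log2 fold change 0.28 to 0.36, edgeR adjusted p 0.0730 to 0.121). The lower gene was Dnajb11 (ERdj3), a soluble ER partner of BiP that had 177, 178 and 181 CPM in the vehicle libraries and 154, 158 and 155 CPM in the PEox libraries (log2 fold change -0.20 ± 0.05 (SE), edgeR adjusted p = 0.00933). The Dnajb11 call was lost with scaling by library size (-0.06, edgeR adjusted p = 0.327) and with length and GC content removed (-0.11, 0.107), and so was that of Dnajb1 with the latter (0.12, 0.0725). Dnajb6, which prevents aggregation, had 128, 128 and 121 CPM in the vehicle libraries and 118, 117 and 107 CPM in the PEox libraries, separated but not called (log2 fold change -0.14 ± 0.06 (SE), edgeR adjusted p = 0.117). Dnajb12, Dnajb13, Dnajb3, Dnajb5 and Dnajb7 were not called, and Dnajb8 had no count. Dnajb13 shares 305 exonic bases with Ucp2, which was far more abundant (998 CPM in vehicle), so counts assigned to Dnajb13 are uncertain.

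DNAJC proteins share little beyond the J domain, and of 25 tested genes 7 were higher and 8 lower. Of all tested genes 18.3% were higher and 18.8% lower, and of those averaging at least 5 CPM 28.6% and 26.9%. Among the genes that were higher, Dnajc28 rose by 1.34 ± 0.27 on the log2 scale from 3.40 ± 0.539 CPM in vehicle to 8.64 ± 2.80 CPM in PEox. Dnajc16, an ER membrane protein, rose by 0.96 ± 0.13. Dnajc6 (auxilin), which uncoats clathrin vesicles, rose by 0.71 ± 0.15. Dnajc10 (ERdj5), a disulphide reductase of the ER, rose by 0.57 ± 0.10, and Dnajc14 by 0.57 ± 0.08. Dnajc5, the cysteine string protein of secretory vesicles, rose by 0.30 ± 0.07. Dnajc3 (P58IPK), an ER co-chaperone, had 282, 289 and 306 CPM in the vehicle libraries and 343, 355 and 334 CPM in the PEox libraries (log2 fold change 0.24 ± 0.05 (SE), edgeR adjusted p = 0.00600), and the sign turned to -0.02 (adjusted p = 0.850 by edgeR) when length and GC content were removed. That removal also ended the Dnajc5 call (0.08, edgeR adjusted p = 0.366) and lowered Dnajc6 to 0.45, Dnajc10 to 0.34 and Dnajc14 to 0.33, which stayed called. Exons of Dnajc14 overlap Ormdl2 by 1114 bases, and Ormdl2 had 108 CPM in vehicle, so the Dnajc14 value is uncertain.

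Most of the lower genes of the class encode proteins of the nucleus, the ribosome and mitochondria. Dnajc9, a histone chaperone, had 227, 228 and 235 CPM in the vehicle libraries and 117, 116 and 109 CPM in the PEox libraries and a log2 fold change -1.01 ± 0.05 (SE), edgeR adjusted p = 4.72e-06. All 3 PEox libraries had about the same lower level, and the cell division genes given above moved the same way. Dnajc2 (ZRF1), a ribosome-associated partner of Hspa14, had 76.7, 69.8 and 72.6 CPM in the vehicle libraries and 51.5, 48.7 and 48.8 CPM in the PEox libraries (log2 fold change -0.56 ± 0.07 (SE), edgeR adjusted p = 0.000491). Dnajc21, which works in ribosome assembly, fell by 0.64 ± 0.11 on the log2 scale (30.6 ± 2.70 CPM in vehicle to 19.7 ± 1.11 CPM in PEox), and Dnajc8, a splicing factor, fell by 0.29 ± 0.06 (177 ± 3.65 CPM in vehicle to 145 ± 9.10 CPM in PEox). Dnajc4 fell by 0.56 ± 0.11 (41.97 ± 2.0 CPM in vehicle to 28.5 ± 3.72 CPM in PEox). Neither Dnajc4 (-0.07, edgeR adjusted p = 0.681) nor Dnajc8 (-0.11, 0.168) was called with length and GC content removed, and Dnajc8 was not called with scaling by library size either (-0.15, 0.0710). In mitochondria, Dnajc15 (MCJ), a protein of the inner membrane, had 143, 127 and 127 CPM in the vehicle libraries and 69.6, 67.1 and 69.8 CPM in the PEox libraries (log2 fold change -0.94 ± 0.07 (SE), edgeR adjusted p = 2.38e-05). Dnajc19, a partner of the import motor, had 112, 106 and 109 CPM in the vehicle libraries and 55.3, 55.4 and 62.1 CPM in the PEox libraries (log2 fold change -0.92 ± 0.07 (SE), edgeR adjusted p = 3.33e-05), and its pseudogene held 7.41% of that level in vehicle and 5.53% in PEox. The Dnajc19 value was -0.52, still called, with length and GC content removed. Dnajc30 fell by 0.66 ± 0.13 on the log2 scale (39.7 ± 1.09 CPM in vehicle to 25.1 ± 3.91 CPM in PEox), with 436 exonic bases shared with Bud23.

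The remaining genes of the class were not called as tested. They were Dnajc1, Dnajc7, Dnajc11, Dnajc12, Dnajc13, Dnajc17, Dnajc18, Dnajc24, Dnajc25 and Dnajc27, whose levels in a single library ran from about 1.03 CPM (Dnajc27) to 198 CPM (Dnajc7). Dnajc22 was not tested and Dnajc5b and Dnajc5g had no count, so that 3 of the 74 genes had none at all. The 20 uncalled members averaging at least 5 CPM had log2 fold changes between -0.30 and 0.86, the extremes belonging to Hspb1 and Dnajb5.

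Sorted by the compartment assigned to the protein, most ER members were higher and no more than 1 of the members assigned to mitochondria was. Of all tested genes 18.3% were higher and 18.8% lower, and of those averaging at least 5 CPM 28.6% and 26.9%. Of 13 ER members 9 were higher and 1 lower, with a median log2 fold change of 0.33. Their summed level was 2600 to 2753 CPM in vehicle and 3230 to 3233 CPM in PEox. Its largest parts were Hspa5 (mean 1140 CPM in vehicle and 1371 CPM in PEox) and Hsp90b1 (701 and 864 CPM). The 13 other ER chaperones, without an Hsp or Dnaj symbol and described below, had 4 higher and 8 lower (median -0.21). Of 8 mitochondrial genes 1 was higher (Dnaja3) and 4 lower (Hspe1, Dnajc15, Dnajc19 and Dnajc30), with a median of -0.41 and sums of 833 to 906 against 645 to 708 CPM. The 36 tested genes of the cytosol and nucleus had 12 higher, 7 lower and a median of -0.04. The 3 tested genes of vesicles had 2 higher and none lower. The 7 tested genes of another or no assigned compartment had 1 higher (Dnajc28) and 2 lower (Dnajc4 and Hspb11). Compartments were assigned from general knowledge, and the counts and medians depend on that assignment. Dnajc28 and Dnajc4, for example, were placed in none of the named compartments and are not in the mitochondrial count. The difference between compartments was not tested, since genes are not replicates. With length and GC content removed, 6 ER genes were called higher (median 0.17) and 1 lower, while Dnajb11 was no longer called. The lower gene was then Dnajc1, which turned from 0.03 to -0.23 (edgeR adjusted p = 0.0428). In that setting 4 mitochondrial genes were called lower and none higher (median -0.39).

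**Figure D3:**
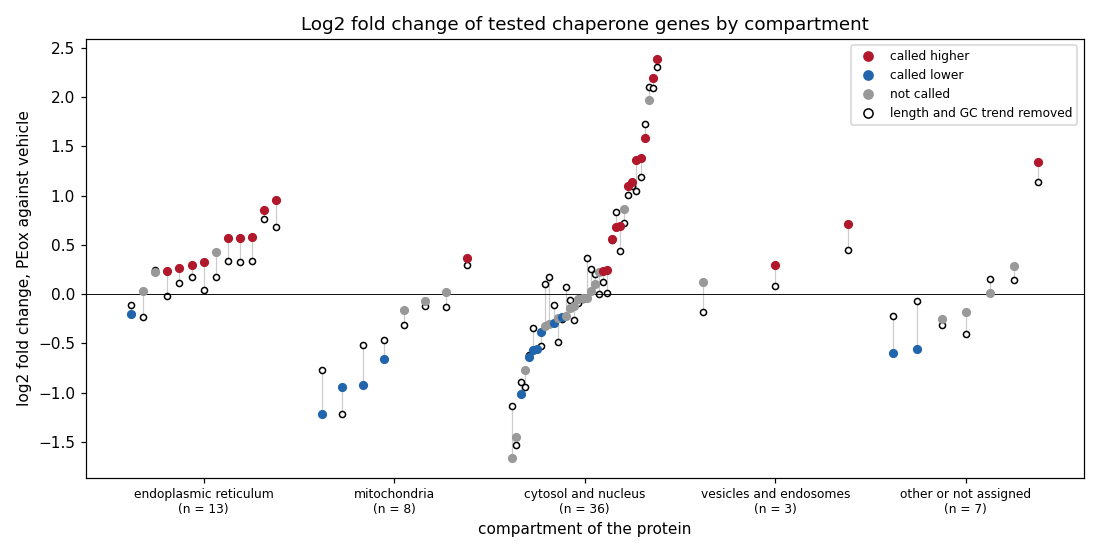
Log2 fold change of each tested gene by compartment (x axis): filled points are the values as tested (red called higher, blue called lower, grey not called), open points the values with the trend on length and GC content removed, joined by a line. ER genes lie mostly above 0 (median 0.33, and 0.17 after removal) and mitochondrial genes mostly below (-0.41 and -0.39).

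Transcript length moved with the direction of the difference. The median length was 3471 bases for the 25 higher members, 1646 for the 14 lower ones and 2402 for all tested genes, and 4133 for ER genes. Over all tested genes the median log2 fold change was -0.51 for the shortest of 12 length bins (median 421 bases) and 0.31 for the bin with a median of 5111 bases. The differences of Hspa1a, Hspa1b and Hsph1 stand outside that trend. These genes kept log2 fold changes of 2.09, 2.31 and 1.19 after its removal. The shorter Hspe1 went from -1.22 to -0.77 and Dnajc19 from -0.92 to -0.52, both still called. In that setting 18 members were called higher and 11 lower. Whether the trend is biological or technical was not tested.

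**Figure D4:**
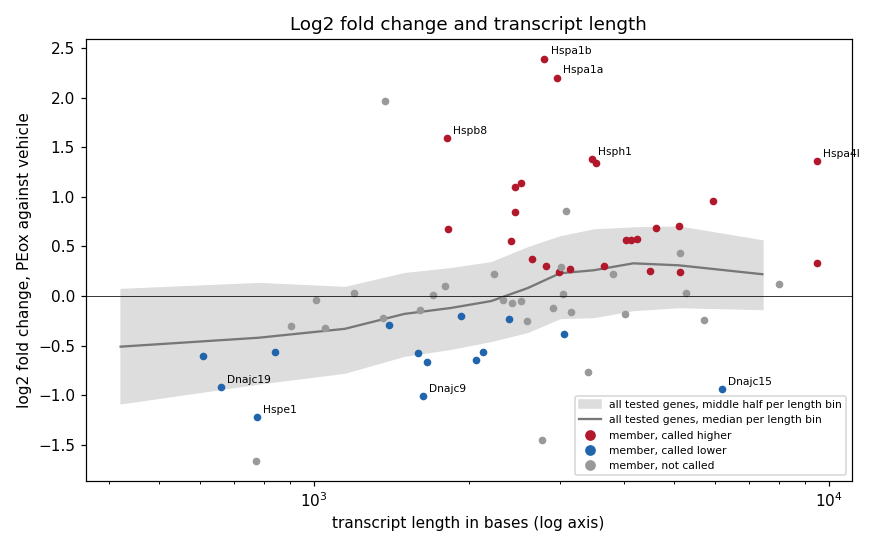
Log2 fold change (y axis) against transcript length in bases (log x axis) for the 67 tested members, coloured by call; the line and band are the median and the interquartile range of all tested genes in 12 length bins. Long transcripts lie higher than short ones. Members above the band include Hspa1a, Hspa1b, Hsph1, Hspb8 and Dnajc28, and members below it include Hspe1, Dnajc9 and Dnajc15, the last a long transcript.

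Other genes of the same pathways, from lists chosen with earlier results of these data known, did not share one direction. Some genes, such as Stip1, Grpel1 and Sec63, are counted in more than 1 list. Of all tested genes 18.3% were higher and 18.8% lower, and of those averaging at least 5 CPM 28.6% and 26.9%. Among 5 tested regulators of the heat shock response 2 were higher and 1 lower. Hsf1 had 87.95, 89.7 and 83.8 CPM in the vehicle libraries and 109.9, 95.7 and 104 CPM in the PEox libraries (log2 fold change 0.24 ± 0.07 (SE), edgeR adjusted p = 0.0260), a call lost in 6 of 14 alternatives, among them removal of any library except PEox 2 (log2 fold change 0.19 to 0.26, edgeR adjusted p 0.0552 to 0.0962). Hsf2 rose by 0.85 ± 0.21 (5.36 ± 1.16 CPM in vehicle to 9.68 ± 0.719 CPM in PEox), and Hsbp1, an HSF1-binding protein, fell by 0.36 ± 0.06 (143 ± 4.34 CPM in vehicle to 112 ± 7.22 CPM in PEox). Of 14 HSP70 nucleotide exchange factors and cofactors 3 were higher and 6 lower (median -0.14). The counts with length and GC content removed were 2 higher and 3 lower (median -0.12), and with scaling by library size 3 and 3 (median -0.01). Bag3, the partner of Hspb8, had 12.96, 15.7 and 13.9 CPM in the vehicle libraries and 28.4, 24.6 and 27.8 CPM in the PEox libraries (log2 fold change 0.92 ± 0.12 (SE), edgeR adjusted p = 0.000636), Bag1 fell by 0.38 ± 0.05 (284 ± 16.97 CPM in vehicle to 218 ± 3.04 CPM in PEox), and Stip1, which links HSP70 and HSP90, fell by 0.32 ± 0.05 (426 ± 16.2 CPM in vehicle to 341 ± 7.90 CPM in PEox). With length and GC content removed, Bag1 was at 0.00 and Hsbp1 at -0.01 (edgeR adjusted p = 0.903), neither called. Scaling by library size moved Stip1 to -0.18, still called, and Hsf1 to 0.38.

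The HSP90 co-chaperones numbered 22, of which 7 were higher and 9 lower (median -0.12). The shares over tested genes averaging at least 5 CPM were 28.6% and 26.9%. With scaling by library size 7 co-chaperones were higher and 6 lower (median 0.02). Fkbp5, a steroid receptor co-chaperone, rose by 0.88 ± 0.07 (102 ± 4.41 CPM in vehicle to 188 ± 15.9 CPM in PEox) and Ptges3 (p23) by 0.53 ± 0.06 (128 ± 6.77 CPM in vehicle to 184 ± 7.65 CPM in PEox), whereas Ahsa1, the activator of the HSP90 ATPase, fell by 0.50 ± 0.04 (398 ± 11.3 CPM in vehicle to 282 ± 7.93 CPM in PEox). Of the 4 genes with a J domain but no Dnaj symbol, 2 were higher, Gak by 0.52 ± 0.07 and Sec63 by 0.50 ± 0.07, and the other two were not called. The 13 other mitochondrial chaperones and proteases had 3 higher and 4 lower (median 0.02), with Clpp (-0.61 ± 0.08), Htra2 (-0.50 ± 0.08) and Grpel1 (-0.40 ± 0.06) lower. With length and GC content removed Clpp was not called (-0.18, edgeR adjusted p = 0.107), and the list had 1 higher and 3 lower. The 13 other ER chaperones had 4 higher and 8 lower (median -0.21), against 18.3% higher and 18.8% lower among all tested genes. These counts became 3 and 4 (median -0.05) with length and GC content removed, and 4 and 5 (median -0.08) with scaling by library size. Their lowest p-values belonged to Manf (-0.74 ± 0.08), Calr (-0.53 ± 0.06) and Pdia6 (-0.36 ± 0.05). Prefoldin, which hands clients to the cytosolic chaperonin, had 4 of 6 subunits lower and none higher (median -0.61), among them Pfdn1 (-0.94 ± 0.06), Pfdn5 (-0.81 ± 0.05) and Pfdn6 (-0.75 ± 0.05). Removal of length and GC content left 3 lower (median -0.22), with Pfdn1 at -0.61, Pfdn5 at -0.41 and Pfdn6 at -0.17. The same removal gave Ahsa1 -0.23, Gak 0.26, Sec63 0.23, Htra2 -0.32 and Cryab -0.44, all still called. Of 2 other tested small heat shock proteins Cryab fell by 0.88 ± 0.13 (28.6 ± 2.69 CPM in vehicle to 15.6 ± 1.64 CPM in PEox), and Cryaa (-0.33 ± 0.12, edgeR adjusted p = 0.0598) was not called.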

How the data were processed

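Per the labels' protocols, RNA from sorted cells was sequenced by a company on a NovaSeq instrument as paired reads of 150 bp, cleaned with fastp and aligned with HISAT2 2.0.5. EdgeR 3.22.5 also stands in the submitters' processing notes. Of counter, genome build and strandedness nothing is given in the sources used here. Genes with overlapping exons or near-identical copies are therefore uncertain. The deposited values are raw read counts per gene, not normalized, for 55401 identifiers, of which 55141 were given a symbol from a reference table. Biotype, exons and transcript lengths came from GENCODE M21 (GRCm38) and promoters from RefSeq (GRCm38.p6), searched for textbook forms of the heat shock and ER stress elements. 0 columns of samples were left unused.

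Libraries were grouped by treatment label, 3 in each group. In R 4.3.3 with edgeR 4.0.16, genes were kept by filterByExpr (18253), scaled by TMM factors of 0.951 to 1.05 and compared by group alone with the robust quasi-likelihood test. Benjamini-Hochberg adjustment ran over all tested genes, with calls at 0.05. The SE was obtained as the log2 fold change over the square root of F. CPM is scaled with the TMM factors, and levels per kb are CPM over transcript length. Ratios within a library were compared by exact two-sided permutation. The floor of 3 counts covers counting error only. Counts of libraries of 1 group differed by more than sampling noise (chi-square per gene 16.5 to 38.2, and 263 to 338 between groups). Each library was taken as 1 replicate, and the chi-square does not show whether libraries came from separate animals. Total counts ranged from 56252806 to 66849230.

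The alternatives were RLE scaling, library size scaling, no low count filter, a block for the replicate number, a filter that asks for 5 CPM in 3 libraries, DESeq2 1.42.0, limma-voom (limma 3.58.1), removal by loess (span 0.5) of each library's dependence on the length and GC content of transcripts, and leaving out each library in turn. The procedure was tested on simulated data. The members and lists were chosen with earlier results of these data known. Full values are given for 24 fixed members, for the 4 largest and the 4 smallest log2 fold changes among called members averaging 5 CPM or more, and shorter values for other members, with up to 3 genes of smallest p-value per related list and Hsf1. Some genes that this rule or the marker lists take are not reported here. Dnaja4, Dnajb4, Hspa13 and Hspa4l are given per library beyond that rule, which was chosen after their values were seen.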

Additional observations from a re-analysis of the deposited data

How the results depend on the processing

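Across the 14 alternatives the number of chaperone genes called higher was 18 to 27 (25 as tested) and the number called lower 10 to 15 (14 as tested). With 1 library left out these were 20 to 25 and 12 to 15. Of the 25 higher genes 17, and of the 14 lower genes 9, kept their call in every alternative. Scaling by library size moved the median log2 fold change of all genes by 0.14 and gave 4411 higher and 2715 lower genes in place of 3337 and 3438, with 27 and 10 chaperone genes. Removal of the trend on transcript length and GC content ended the calls of Dnaja1, Dnaja3, Dnajb1, Dnajb11, Dnajb14, Dnajc4, Dnajc5, Dnajc8, Hspa5 and Hspb11. It turned Dnajc3 to -0.02, Hspa9 to -0.13, Dnajc1 to -0.23 (then called), Hspb1 to 0.17, and Bag1 and Cryaa to 0.00, and it ended the calls of Hsbp1 and Clpp. Scaling by library size ended the calls of Dnajb11, Dnajc8, Hspa8 and Hspb11 and turned Hsp90ab1 to 0.09 and Hspd1 to 0.06, and leaving out PEox library 1 turned Hspa9 to -0.01. The higher DNAJA genes numbered 1 with the replicate block and 1 with length and GC content removed, and 0 to 2 with 1 library left out. The higher DNAJB genes numbered 3 with length and GC content removed, in place of 5. Beyond those settings' own construction the cause was not tested. The replicate numbers did not pair the libraries (correlation of deviations 0.00541, 0.0135 and -0.00583), and the replicate block gave 3018 higher and 3141 lower genes, 22 and 13 of them chaperones. Genes under about 1 CPM, such as Hspa12a, Hspb2 and Dnajb7, were measured too thinly to show a difference of the size seen here.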
